A study of Mus musculus with 24 samples.

Results

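The genes described here are 31 enzymes, regulators and carriers of cholesterol and fatty acid synthesis, taken by symbol from the 24421 genes of the deposited expression table. They were not chosen by a threshold on their values. By role they are 7 genes of the mevalonate steps, 12 genes of squalene and sterol ring synthesis, 4 regulators and sterol carriers, and 8 genes of fatty acid synthesis. Hmgcs1, which encodes the synthase that makes hydroxymethylglutaryl-CoA, was listed at 0 in all 24 libraries, so no level or difference is given for it. The other 30 genes all passed the filter on low values in every fit.

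Cells make cholesterol by condensing acetyl-CoA into mevalonate, building isoprenoid units from it, joining them into squalene and closing squalene into a sterol ring that later enzymes trim. Fatty acids are made from the same acetyl-CoA. The transcription factors SREBP-2 (Srebf2) and SREBP-1 (Srebf1) turn on most of these genes when sterols run low, and Insig1 holds them inactive in the endoplasmic reticulum when sterols are plentiful. The intestinal epithelium both makes sterols and takes them up from the diet and bile, and it renews itself continuously, which needs new membrane.

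The libraries came from 12 C57BL/6 mice, 8 to 14 weeks old, each of which gave epithelial cells from both gut regions, sorted as Villin-tomato positive and CD45 negative. The series title speaks of gut macrophages deficient in the interleukin-10 receptor alpha chain. The labels of the mice say only KO or WT, and they place irradiation and a chimerism time on the mice rather than naming the deleted cell type. KO early mice (mice 100, 117, 118 and 120) were sampled 2 weeks after chimerism, KO late mice (mice 49, 50 and 57) 8 weeks after chimerism, WT irradiated mice (mice 59 and 61) 8 weeks after chimerism, and WT non-irradiated mice (mice 72, 73 and 75) received no treatment. KO early and WT irradiated mice therefore differed in time as well as in genotype, and those cannot be told apart here. Each mouse gave 1 colon and 1 ileum library. All cells carried the Villin-driven reporter. The KO label could not be checked against its gene: Il10ra was between 1.6 and 31.2 normalised reads over the 24 libraries, which were sorted to exclude the macrophages.

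Libraries held 8.32 to 18.7 M reads over genes. Values below are normalised reads, meaning reads divided by a library size factor, unless a log2 difference is named. The epithelial genes Vil1 (10193 to 80532 normalised reads) and Epcam (12262 to 35668) were high in every library, and the leukocyte gene Ptprc, which encodes CD45, was at 157 to 472. The ribosomal RNA precursor Rn45s took 0.0642% to 29.4% of reads. Summed reads on olfactory and vomeronasal receptor genes, which belong to sensory neurons, ran from 155 to 997 RPM and averaged 889 in KO late colon against 273 to 518 in the other groups' means. In bulk epithelium, fewer cells of a type and less RNA per cell cannot be told apart.

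Upstream sequence was available for 25 of the 31 genes as windows of 300 bases, from 250 before to 50 after the gene start, from RefSeq on build GRCm38.p6. CCAAT (or ATTGG on the other strand), the motif of the SREBP partner NF-Y, occurred in the windows of 22 of these 25 genes (88%) and in those of 41.1% of all 27025 genes with a window. GGGCGG (or CCGCCC), the Sp1 motif, occurred in 21 of the 25 (84%) against 38.2% of all genes. The sterol element TCACNCCAC (or GTGGNGTGA) occurred in 1 of the 25 (4%), Hmgcs1, against 1.44% of all genes. The stretches below are examples from genes with tissue differences described later or, for Hmgcs1, with the sterol element. Acly, Dhcr7, Sc5d, Tm7sf2 and Me1 also have such differences and a CCAAT match, and are not shown. Acaca has a tissue difference and no CCAAT match in its window. Hsd17b7, Lbr and Msmo1 hold further CCAAT matches beside the 1 shown. Each stretch is written 5′ to 3′ on the gene's own strand, with the motif in capitals. A match is a run of letters, and binding was not measured. In order, they lie at chr13:119690189-119690247 (plus strand, motif 137 bases before the gene start), chr2:155517945-155517999 (plus, 73 before), chr5:28071171-28071225 (plus, 216 before), chr1:169969249-169969303 (minus, 73 before), chr1:181842440-181842494 (minus, 68 before) and chr8:64733645-64733699 (minus, 96 before), all upstream of the first exon.
Hmgcs1, sterol element: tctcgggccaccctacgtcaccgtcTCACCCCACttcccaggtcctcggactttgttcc
Acss2, CCAAT box: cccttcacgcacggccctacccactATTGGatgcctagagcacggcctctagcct
Insig1, CCAAT box: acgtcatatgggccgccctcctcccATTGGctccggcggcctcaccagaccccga
Hsd17b7, CCAAT box: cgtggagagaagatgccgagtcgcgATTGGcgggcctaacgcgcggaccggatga
Lbr, CCAAT box: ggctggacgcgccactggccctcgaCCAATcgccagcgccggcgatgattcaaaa
Msmo1, CCAAT box: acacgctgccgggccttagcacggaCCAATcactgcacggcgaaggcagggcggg

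Per kilobase of transcript, the sterol demethylation oxidase Msmo1 was the highest of the genes in WT non-irradiated colon, at 1158 ± 292 normalised reads per kb (SD, n = 3). The desaturase Scd2 followed at 822 ± 516 and the citrate lyase Acly at 757 ± 297, and these 3 levels did not differ beyond their spread. The lowest measured levels were those of the isomerase Idi1 (42.8 ± 3.0 per kb) and the desaturase Scd1 (49.4 ± 13.8). In WT non-irradiated ileum, Msmo1 was again highest (1005 ± 407 per kb) and Scd1 was at 9.9 ± 5.2. Scd2 therefore stood above its paralog Scd1 in both tissues. The 2 genes are similar in sequence, and the assignment of short reads shared by them is not stated in the labels.

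**Figure D1:**
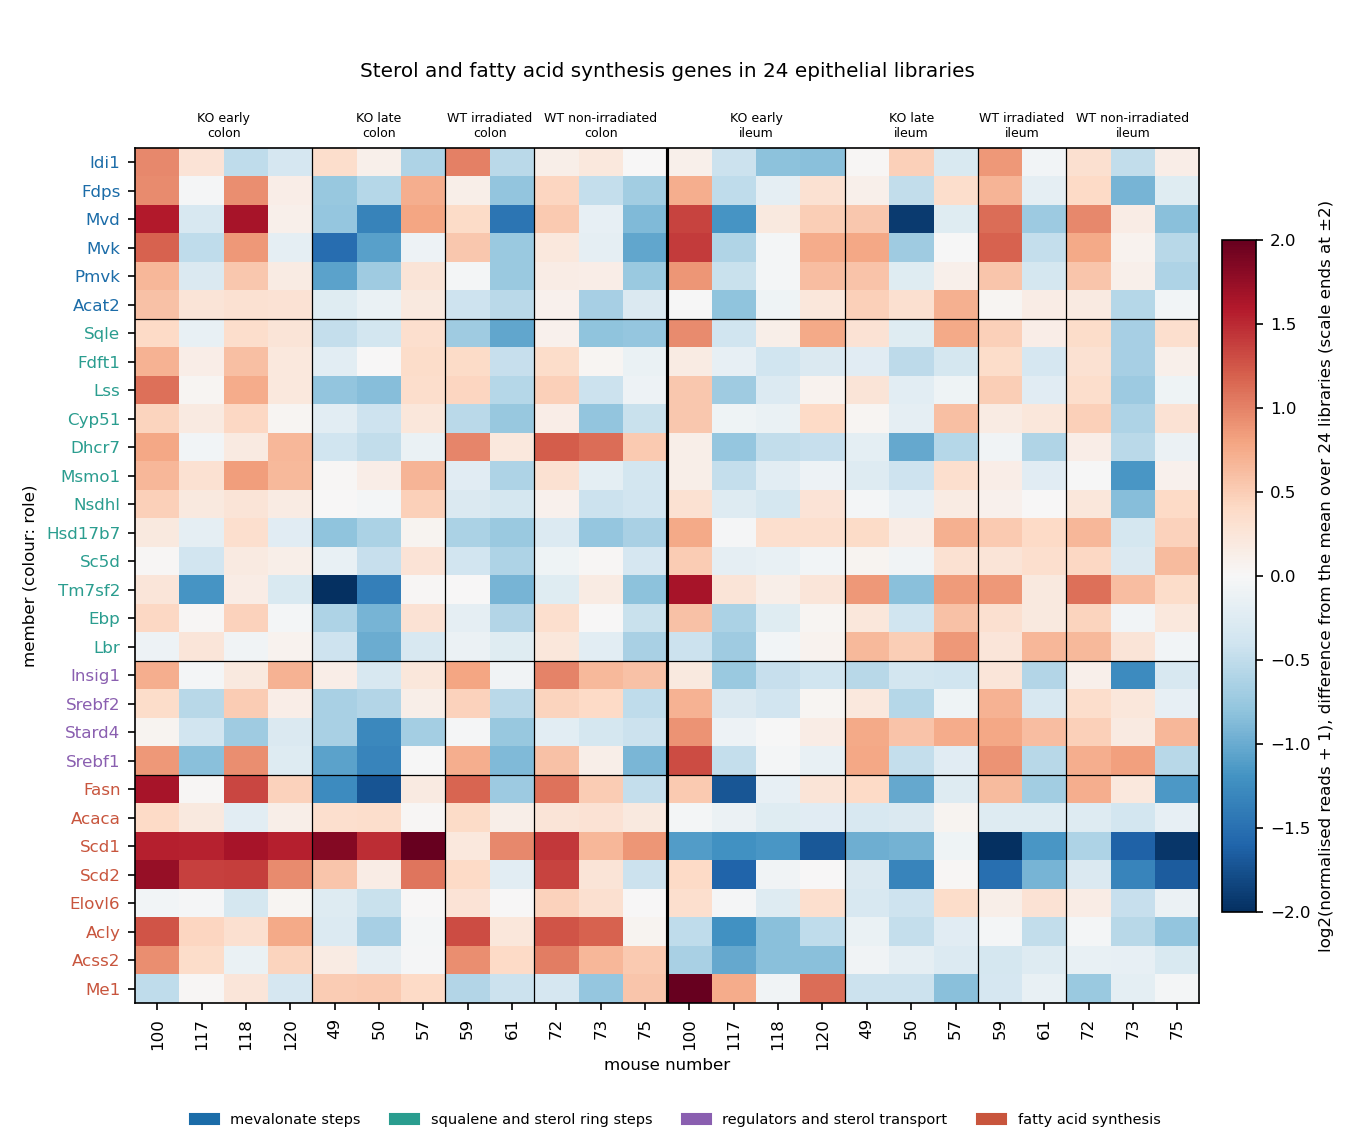
Level of each of the 30 measured genes (rows, ordered by role) in each of the 24 libraries (columns, ordered by tissue and group), as the difference of log2(normalised reads + 1) from that gene's mean over all libraries (colour scale ends at ±2). Scd1, Scd2, Acss2 and Insig1 are higher in the colon library than in the ileum library of every mouse. The Acss2 difference is only 0.001 in KO late mouse 50. Whole columns stand high or low within a group.

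The first comparison was colon against ileum within genotype. The main fit treated the 24 libraries as independent, with the mouse as a block in an alternative. In the 5 WT mice, 12 of 30 genes passed the limma test: 7 were higher in colon (10.8% of all 19588 genes were called higher) and 5 were lower (10.9% were called lower; 21.6% were called in all). The higher genes were 5 of the 8 fatty acid genes (Scd1, Scd2, Acss2, Acly and Acaca) with Dhcr7 and Insig1. The lower genes were 4 of the 12 sterol ring genes (Hsd17b7, Sc5d, Sqle and Lbr) and the sterol carrier Stard4. None of the 6 mevalonate genes passed, against 0 at an unadjusted p under 0.05, and all 6 had a lower fitted level in colon (median log2 difference −0.34). Over the 30 genes the median log2 difference was −0.20, against 0.00 over all genes tested, with 0.73 for the fatty acid genes and −0.50 for the sterol ring genes.

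Scd1 encodes the desaturase that makes oleate. In WT colon it was at 135 and 228 normalised reads in the irradiated mice and at 313, 185 and 217 in the non-irradiated mice. In WT ileum it was at 10.3 and 51.5, and at 76.1, 37.3 and 29.5. Every colon value was above every ileum value, and the log2 difference was 2.62 ± 0.33 (SE; limma adjusted p = 2.16e-06). In KO early mice, Scd1 was at 344, 340.5, 367 and 343 in colon against 53.2, 49.7, 51.4 and 35.5 in ileum, a log2 difference of 2.87 ± 0.37 (limma adjusted p = 3.4e-06). At the later KO time it was at 419.9, 327 and 526 in colon against 58.7, 60.3 and 110.2 in ileum, a log2 difference of 2.49 ± 0.42 (limma adjusted p = 0.000141). It was the widest tissue difference among the genes in all 3 sets of mice, and no colon library overlapped an ileum library.

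Scd2, its paralog, was at 3946.5 and 2593 normalised reads in WT irradiated colon and at 7632, 3600.4 and 2219.5 in WT non-irradiated colon. In WT ileum it was at 1059 and 1578, and at 2446, 1205 and 950.5. The ranges overlapped, since the ileum of mouse 72 was above the colon of mouse 75, but each mouse was higher in colon. The log2 difference was 1.39 ± 0.38 in WT mice (limma adjusted p = 0.00938) and 1.67 ± 0.42 in KO early mice (limma adjusted p = 0.00645), where colon was at 9995, 7772, 7808 and 5775 and ileum at 3939, 991, 2873.5 and 3019. KO late colon was at 4405, 3316 and 6299.6 and KO late ileum at 2448, 1198.5 and 3064, and the gene did not pass without the mouse as a block (limma adjusted p = 0.00735 with the block).

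Acss2 and Acly make cytosolic acetyl-CoA, from acetate and from citrate. Acss2 was at 1089 and 749 in WT irradiated colon, and at 1166, 906 and 818 in WT non-irradiated colon. In WT ileum it held a narrow range of 449 and 478.5, and 516, 507 and 460.5. The groups did not overlap, and the log2 difference was 0.95 ± 0.17 (limma adjusted p = 0.000229). In KO early mice Acss2 was at 1087, 734, 521 and 776 in colon against 364, 281, 320.4 and 318 in ileum, a log2 difference of 1.24 ± 0.19 (limma adjusted p = 4.4e-05). At the later KO time it was at 642, 504 and 561 in colon against 543, 503 and 470.1 in ileum, ranges that overlapped, and it did not pass.

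Acly was at 4379 and 2061 in WT irradiated colon and at 4209, 4003 and 1835 in WT non-irradiated colon. In WT ileum it was at 1723 and 1259, and at 1719, 1199 and 1027. All WT colon libraries were above all WT ileum libraries, with a log2 difference of 1.16 ± 0.26 (limma adjusted p = 0.0019). In KO early mice it was at 4226, 2373, 2208 and 2992.5 in colon against 1241, 761.5, 986 and 1239.8 in ileum (log2 difference 1.46 ± 0.29, limma adjusted p = 0.000695). In KO late colon it was at 1459, 1113 and 1719 and in KO late ileum at 1614, 1271 and 1515, values that overlapped and did not pass. Acaca, which carboxylates acetyl-CoA to malonyl-CoA, had the smallest called difference: in WT mice it was at 1216.5 and 1016, and 1111, 1135 and 1069.6, in colon against 776 and 782, and 783, 720.3 and 836, in ileum. Its log2 difference was 0.51 ± 0.14 (limma adjusted p = 0.00865), with no overlap. The fatty acid synthase Fasn, the elongase Elovl6 and the malic enzyme Me1 did not pass in WT mice.

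Of the sterol ring genes, Dhcr7, the reductase of the last step to cholesterol, was the only called one that was higher in WT colon: 761 and 445, and 888, 835 and 554.5, in colon against 366 and 254, and 423, 265 and 353, in ileum. Its log2 difference was 1.03 ± 0.23 in WT mice (limma adjusted p = 0.002), where the groups did not overlap. In KO early mice it was 0.79 ± 0.25 (limma adjusted p = 0.0394), from 659, 371, 437 and 607 in colon against 419, 226, 274 and 279 in ileum. Hsd17b7, a sterol ketone reductase, was lower in WT colon, at 332 and 306, and 426, 300 and 327, than in WT ileum, at 739 and 676, and 812, 403 and 704. The lowest ileum value, from mouse 73, lay under the highest colon value, from mouse 72, and the log2 difference was −0.98 ± 0.22 (limma adjusted p = 0.00145). Hsd17b7 in KO late mice was at 294, 329.8 and 535 in colon against 667.5, 569 and 843 in ileum (log2 difference −0.87 ± 0.27, limma adjusted p = 0.0214).

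Stard4, a soluble protein that carries sterol between membranes, was lower in colon in all 12 mice. In WT mice it was at 1509.5 and 914, and 1326, 1200.1 and 1135.5, in colon, and at 2623 and 2371.5, and 2141, 1740.2 and 2441, in ileum. The groups did not overlap and the log2 difference was −0.93 ± 0.20 (limma adjusted p = 0.00149). KO late mice had it at 985, 626 and 964 in colon against 2609.9, 2284 and 2572 in ileum, a log2 difference of −1.56 ± 0.26 (limma adjusted p = 0.000108). The remaining called genes in WT mice had log2 differences of 0.88 ± 0.26 for Insig1 (limma adjusted p = 0.0147), −0.60 ± 0.19 for the desaturase Sc5d (0.0301), −0.84 ± 0.28 for the squalene epoxidase Sqle (0.0327) and −0.56 ± 0.20 for the sterol reductase Lbr (0.0447).

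In KO early mice, 7 of 30 genes passed, 6 higher in colon (7.73% of all genes were called higher) and 1 lower (6.43% were called lower; 14.2% in all). Beside Scd1, Scd2, Acss2, Acly and Dhcr7, the higher gene was Msmo1, at 3894, 3054, 4403 and 3849 in colon against 2658, 1767, 2134 and 2283 in ileum, with no overlap (log2 difference 0.78 ± 0.25, limma adjusted p = 0.0399). The lower gene was Me1, which makes NADPH for fatty acid synthesis. Me1 was at 194, 282, 328 and 218 in colon against 1166, 463, 262 and 598 in ileum, and mouse 118 had the opposite order (log2 difference −1.11 ± 0.33, limma adjusted p = 0.0235). The median log2 difference over the 30 genes was 0.30, against −0.09 over all genes.

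In KO late mice, 6 of 30 genes passed, 2 higher in colon (11.1% of all genes were called higher) and 4 lower (17% were called lower; 28% in all). Beside Scd1, Stard4 and Hsd17b7, these were Lbr, Me1 and Tm7sf2. Lbr, a sterol reductase that also sits in the inner nuclear membrane, was at 583, 392 and 619 in colon against 1212, 1091 and 1415 in ileum, with no overlap (log2 difference −1.24 ± 0.25, limma adjusted p = 0.000937). Me1 was at 395, 398 and 364 in colon against 206, 204 and 154 in ileum, with no overlap (log2 difference 1.05 ± 0.38, limma adjusted p = 0.0443). Tm7sf2, the other sterol reductase of that step, was at 29.7, 47.5 and 127 in colon against 228, 69.2 and 226 in ileum, ranges that overlapped (log2 difference −1.42 ± 0.53, limma adjusted p = 0.04999). The median log2 difference over the 30 genes was −0.19, against 0.07 over all genes. Centring values on expressed genes raised the fitted differences, for Scd2 from 1.12 to 1.33, so no direction is given for the set.

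**Figure D2:**
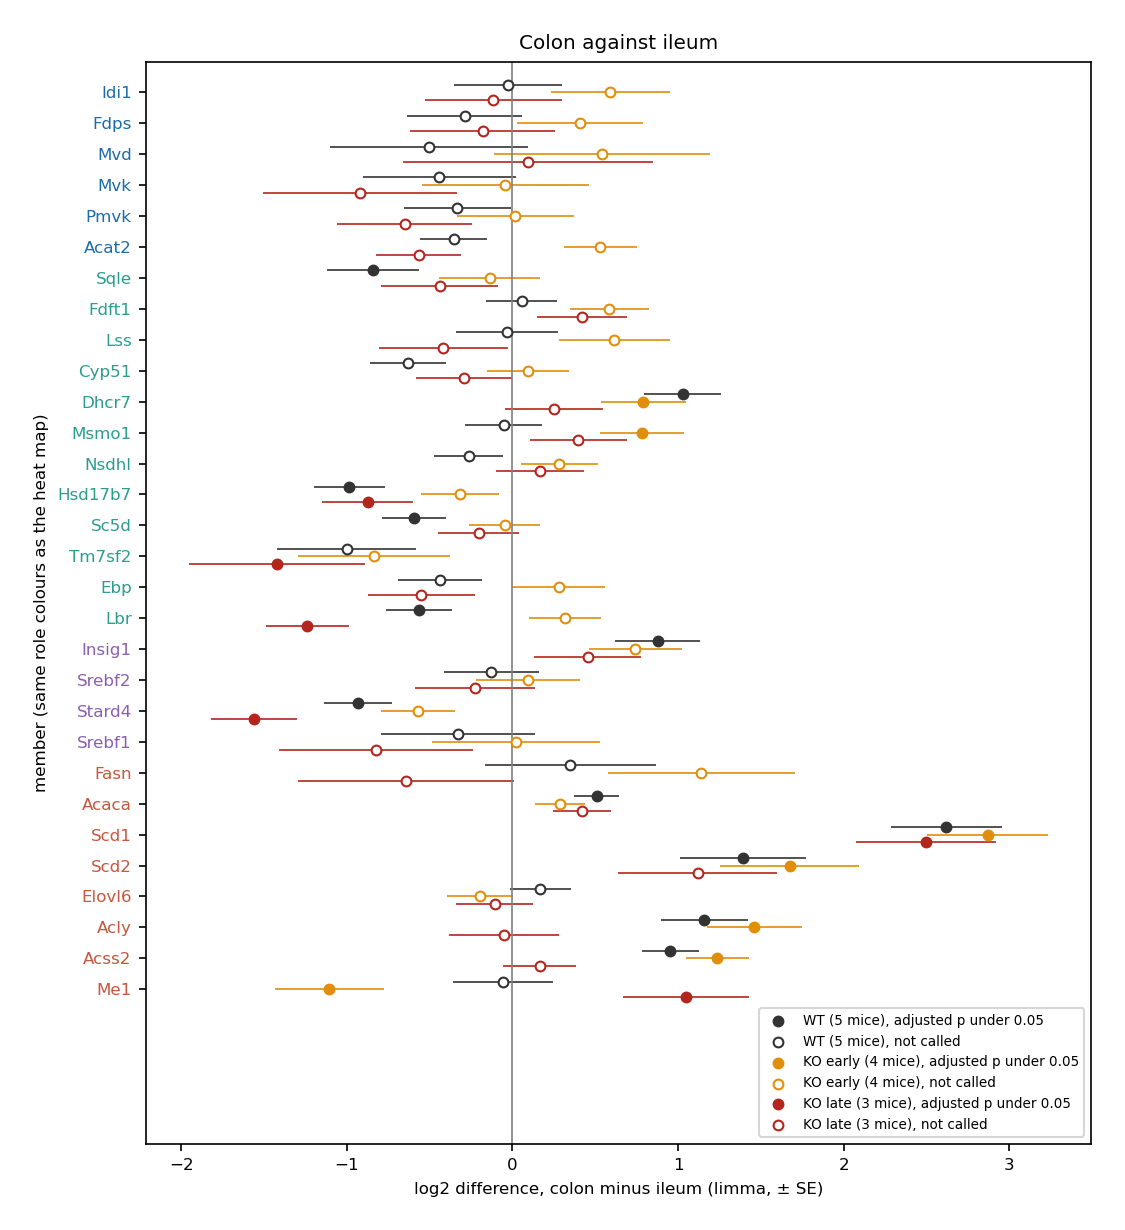
Log2 difference between colon and ileum (x axis; points with bars of 1 SE, from the limma fit) for each of the 30 measured genes (y axis, grouped by role) in WT, KO early and KO late mice, with genes past the adjusted threshold of 0.05 drawn filled. Scd1 lies farthest to the right in all 3 sets, and Stard4 and Hsd17b7 lie left of 0 in each.

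Mouse by mouse, Scd1, Scd2, Acss2 and Insig1 were higher in colon in 12 of 12 mice. In KO late mouse 50 the log2 difference was only 0.001 for Acss2, a near tie, and 0.06 for Insig1. Dhcr7 and Acaca were higher in 11 of 12, and Acly in 10 of 12. The thiolase Acat2, which opens the mevalonate steps, was higher in colon in 4 of 4 KO early mice and in 0 of the other 8. Its log2 difference was only 0.06 in KO early mouse 120 and −0.09 in WT mice 72 and 73. Its interaction between KO early and WT irradiated mice did not pass (limma adjusted p = 0.404). How many of all genes split in this way, or were higher in colon in 12 of 12 mice, was not counted. Fitting each mouse as a block, since its colon and ileum come from the same animal, gave 14 called genes in WT mice (27.3% of all genes were called), 13 in KO early mice (18.1%) and 11 in KO late mice (49.2%). The block added Tm7sf2 and Cyp51 in WT mice. It added Lss, Fasn, Stard4, Acat2, Insig1 and Fdft1 in KO early mice, and Srebf1, Scd2, Mvk, Acat2 and Ebp in KO late mice. Leaving out 1 mouse lowered the KO early count to 4 without mouse 100, 117 or 120 (10.8%, 11.2% and 11.1% of all genes), the KO late count to 3 without mouse 49 (14.3%), and the WT count to 6 without mouse 59 (13.2%). Removing a trend with GC content gave 10 called genes in KO late mice (32.6% of all genes). Among single calls in WT mice, Lbr was lost in 8 of 17 alternatives, Sc5d in 6, Sqle in 5 and Insig1 in 4. Lbr was lost without mouse 59, 61, 73 or 75, Sc5d without mouse 59, 61, 72 or 75, Sqle without mouse 59, 61 or 75, and Insig1 without mouse 59, 61 or 73, each left out in turn. Lbr was also lost without the filter and when centred. Scd2 and Acaca in WT mice were lost without mouse 59, and Dhcr7 and Msmo1 in KO early mice were lost without any 1 of the 4 mice. Me1 in KO early mice was lost without mouse 100 or 120, and Scd2 without mouse 117. In KO late mice Me1 was lost without any 1 of the 3 mice, Hsd17b7 without mouse 49 or 50, and Tm7sf2 without mouse 49. Tm7sf2 was also lost with a pseudocount of 4, without the filter, with TMM scaling, when centred, by edgeR and with the GC trend removed, and Me1 in KO late mice without the filter. With only irradiated WT mice in the contrast, Acly, Dhcr7, Acaca, Scd2, Insig1, Sc5d, Sqle and Lbr were lost. With only non-irradiated WT mice in the contrast, Acaca, Sc5d, Sqle and Lbr were lost. All 24 libraries stayed in both fits.

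Of 44 further sterol and fatty acid genes found in the table, 6 were higher and 13 lower in WT colon, 9 higher and 11 lower in KO early colon, and 6 higher and 14 lower in KO late colon. Over all genes the shares called higher and lower were those given above for each set of mice (10.8% and 10.9% in WT, 7.73% and 6.43% in KO early, 11.1% and 17% in KO late). Npc1l1, the cholesterol uptake protein of the brush border, was at 33.7 to 93.3 normalised reads over the 12 colon libraries and at 6238 to 18752 over the 12 ileum libraries (log2 difference in WT mice −7.88 ± 0.28). Soat2, which esterifies the cholesterol taken up, was at 22.9 to 73.8 in colon and 1299.0 to 4735 in ileum (−6.14 ± 0.32). The sterol exporters Abcg5 (169.6 to 457 in colon, 2429 to 5579.7 in ileum) and Abcg8 (85.5 to 235 and 2227.5 to 5367) did not overlap between tissues either. These named genes were all lower in colon, but their lists were mixed. Of 10 genes of sterol uptake, trafficking and esterification, among them Npc1l1 and Soat2, 3 were called higher and 2 lower in WT colon. In KO early and in KO late colon, 3 were called higher and 3 lower. Of 8 receptors and targets of the sterol receptor LXR, 5 were called lower in colon in each set of mice. In this list 1 gene was called higher in WT colon, 0 in KO early colon and 1 in KO late colon. These counts are to be read against the same shares.

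Cell type markers also differed between the tissues. Of 7 absorptive enterocyte markers, 7 were called lower in WT colon, 6 in KO early colon and 6 in KO late colon, and 4 of 5 colonocyte markers were higher in each. Over all genes, 21.6% were called in WT, 14.2% in KO early and 28% in KO late mice. Of 7 cell cycle genes, 6 were called lower in WT colon and 6 in KO late colon, and none in KO early colon (limma, with 1 at an unadjusted p under 0.05 and a median log2 difference of 0.38). The summed level of those 7 genes was 2476 to 4909 normalised reads in KO early ileum, 6755 to 7398 in KO late ileum and 4329 to 7784 in WT ileum. The part of cell makeup in the tissue differences of the synthesis genes was not tested.

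**Figure D3:**
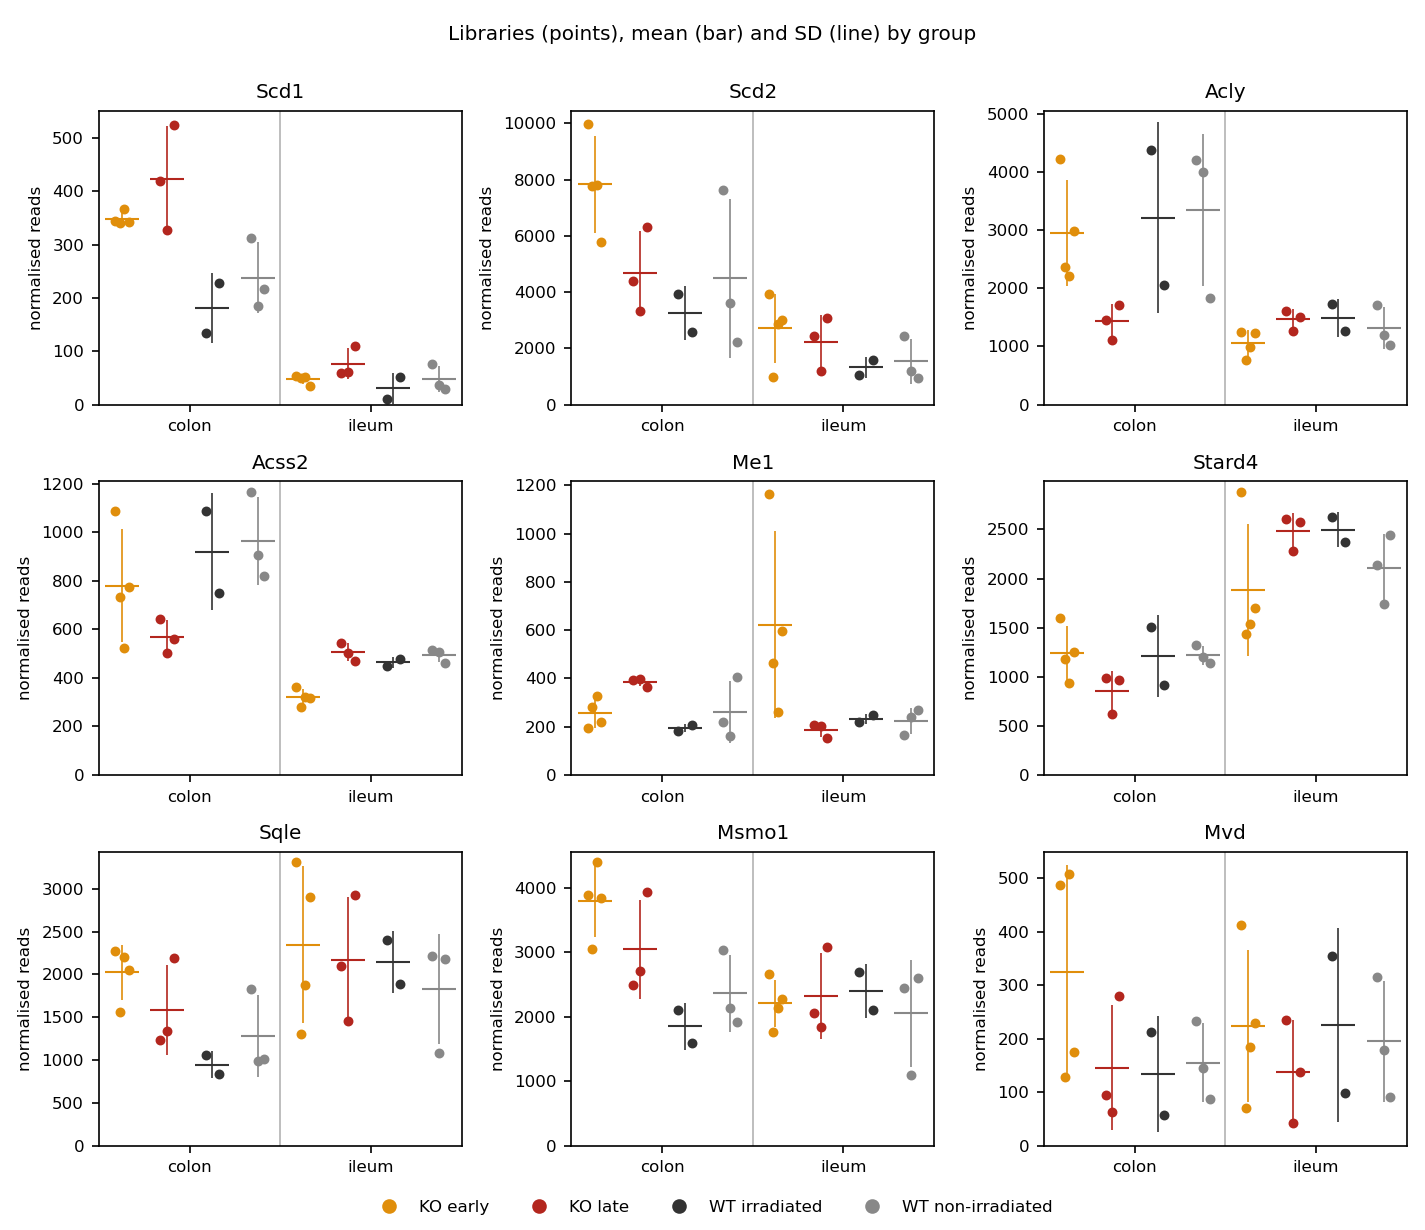
Normalised reads (y axis, linear from 0) of Scd1, Scd2, Acly, Acss2, Me1, Stard4, Sqle, Msmo1 and Mvd in every library, 1 panel per gene, with groups by tissue along the x axis, 1 point per library, a bar at each group mean and a line of 1 SD to each side. Scd1 colon values all lie at or above 135 and its ileum values at or below 110.2, while Mvd runs from 63.3 to 280.1 within KO late colon.

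The next comparisons asked how the genes differed between genotypes within colon. In KO early colon against WT irradiated colon, none of the 30 genes passed (limma; 0.204% of all 19145 genes were called), with 8 at an unadjusted p under 0.05, 0 called by edgeR and 3 by DESeq2 (1.23% of all genes were called by DESeq2). The fitted level was higher in KO early colon for 24 of 30 genes, with a median log2 difference of 0.47 against 0.04 over all genes. By role the medians were 0.75 for the mevalonate genes, 0.59 for the sterol ring genes, 0.10 for the regulators and 0.14 for the fatty acid genes. The WT irradiated group had 2 libraries that lay apart: without mouse 61 the median was 0.12 and 17 genes were higher, and without mouse 59 it was 0.72 and 29 genes were higher. With receptor gene reads as a covariate the median was 0.76 and 2 genes passed, Scd2 and Msmo1 (0.522% of all genes were called).

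Msmo1 was at 3894, 3054, 4403 and 3849 in KO early colon against 2107 and 1595.5 in WT irradiated colon (log2 difference 1.04 ± 0.28, limma adjusted p = 0.270). The groups did not overlap, and 1 WT non-irradiated library, of mouse 72, was at 3044, just under the lowest KO early value. Sqle was at 2276, 1558, 2206 and 2052 against 1056 and 836 (log2 difference 1.09 ± 0.31, limma adjusted p = 0.333). WT non-irradiated colon was at 1827, 989 and 1012 for Sqle, and its highest value lay within the KO early range. Scd1 was 349 ± 12.5 (SD, n = 4) in KO early colon and 182 ± 65.9 (SD, n = 2) in WT irradiated colon (log2 difference 0.99 ± 0.29, limma adjusted p = 0.366). Acat2 was at 381, 303, 313 and 309 against 189 and 173 (log2 difference 0.84 ± 0.25, limma adjusted p = 0.396). For Acat2 the WT non-irradiated libraries, at 269, 160.1 and 206.5, all lay below the KO early ones. DESeq2 called Acat2 (adjusted p = 0.0244), Sqle (0.0405) and Msmo1 (0.0085).

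In KO late colon against WT irradiated colon, none of the 30 genes passed (limma; 1.03% of all genes were called), with 7 at an unadjusted p under 0.05, 0 called by edgeR and 1 by DESeq2 (4.2% of all genes). The median log2 difference was −0.08 against −0.01 over all genes, and 13 of 30 were positive. The 4 regulators and carriers all had lower fitted levels, with a median of −0.41. With receptor gene reads as a covariate the median over the 30 genes became 0.53, with 24 positive and 0 called. Those reads were 701 to 997 RPM in KO late colon and 208 and 549 in WT irradiated colon. The groups did not overlap in them, so this fit cannot separate the covariate from the group. Without a covariate the median was −0.47 without mouse 61 and 0.21 without mouse 59. These shifts in sign mean that no direction is given for the set as a whole.

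Scd1, at 419.9, 327 and 526 in KO late colon against 135 and 228 in WT irradiated colon, had the smallest p (log2 difference 1.24 ± 0.30, limma adjusted p = 0.0769), and DESeq2 called it (adjusted p = 0.0044). Its 7 KO colon libraries of both times, from 327 upward, lay above its 5 WT colon libraries, the highest of which was at 313. The 2 KO times were not pooled in any test. Dhcr7 was at 291, 272 and 352 in KO late colon against 761 and 445 in WT irradiated colon and 888, 835 and 554.5 in WT non-irradiated colon (log2 difference from WT irradiated −0.94 ± 0.33, limma adjusted p = 0.223). The KO late values lay below all 5 WT values. Me1 was at 395, 398 and 364 against 184 and 205 (log2 difference 0.98 ± 0.35, limma adjusted p = 0.230), and the WT non-irradiated values of 219, 162 and 407 spanned both. Acly was at 1459, 1113 and 1719 against 4379 and 2061 (log2 difference −1.09 ± 0.42, limma adjusted p = 0.263). Its KO late values were below all 5 WT colon values, the lowest of which was 1835. How many of all genes separate as Scd1, Dhcr7 and Acly do was not counted. With the WT non-irradiated mice as the control 1 gene passed, Dhcr7 (2.49% of all genes were called), and with both WT groups 2 passed, Scd1 and Dhcr7 (4.12% of all genes).

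**Figure D4:**
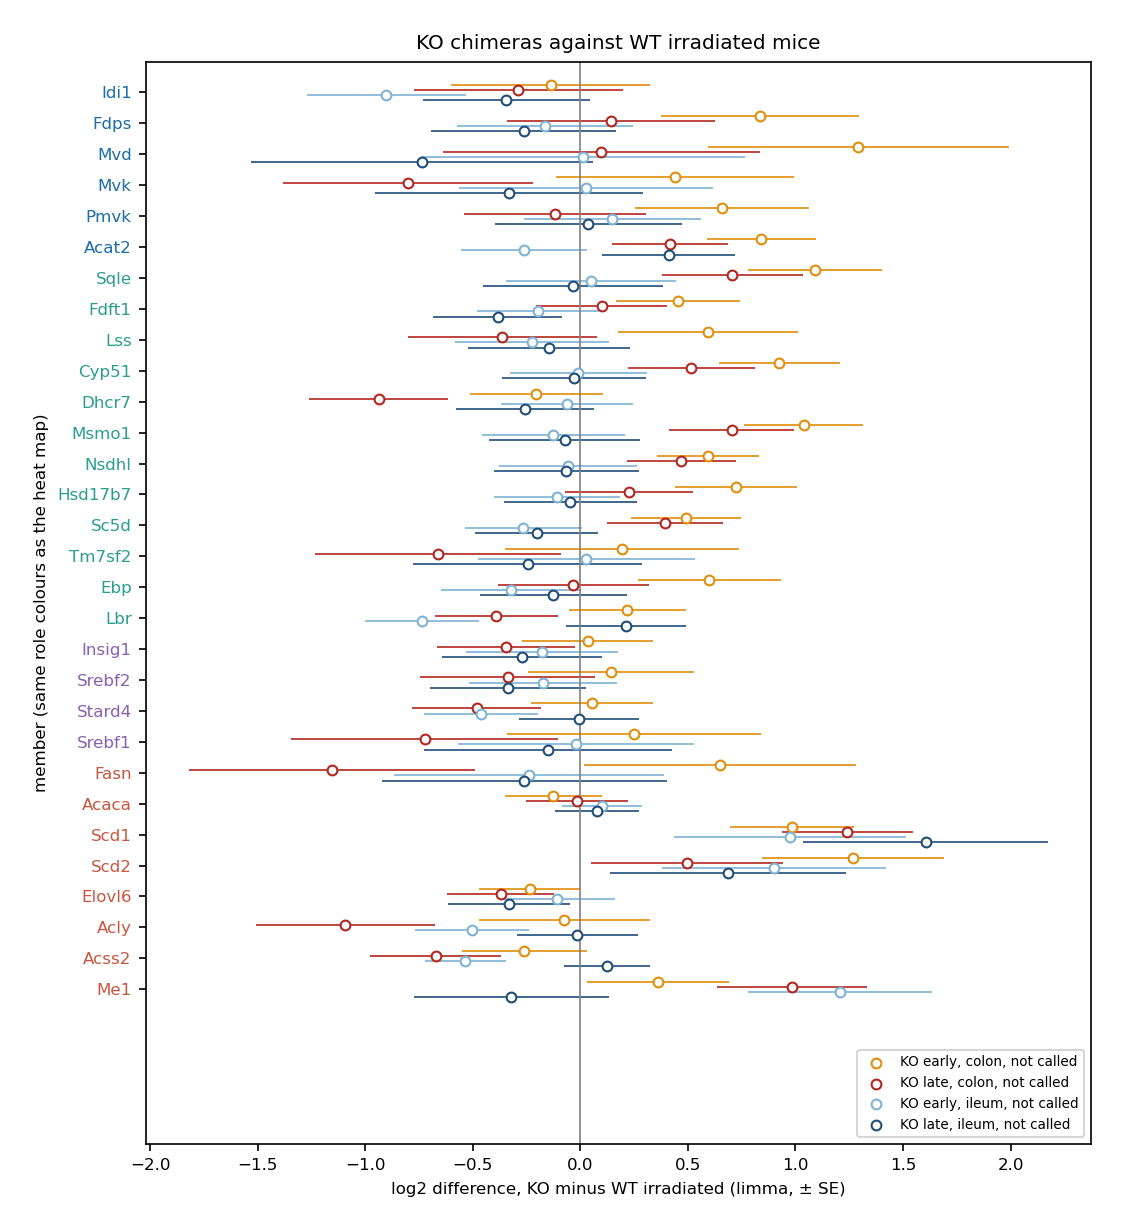
Log2 difference from WT irradiated mice (x axis; points with bars of 1 SE, from the limma fits within tissue) for each of the 30 measured genes (y axis, grouped by role) in KO early and KO late mice, with the 4 comparisons of colon and ileum in different colours. In colon most KO early points lie right of 0 and KO late points scatter on both sides. No gene passed the adjusted threshold in any of the 4 comparisons.

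Markers were also compared between the same colon groups. In KO early colon, 7 of 7 cell cycle genes had higher fitted levels than in WT irradiated colon (median log2 difference 0.38), as did 7 of 7 myeloid genes (0.61), and 0 of 5 goblet genes did (−0.75), with none of these called by limma and 0, 1 and 1 at an unadjusted p under 0.05. In KO late colon, 2 of 5 enteroendocrine genes were called lower (median −1.84), and 0 of 5 goblet genes had a higher level (−0.97). Of the Paneth list Mmp7 was called higher and Ang4 lower, and of 3 tuft genes Trpm5 was called lower. Over all genes, 1.03% were called in KO late against WT irradiated colon. All 7 measured myeloid genes (median 0.58) and all 6 measured leukocyte genes (0.67) had higher fitted levels in KO late colon, with none called by limma and 1 of each list at an unadjusted p under 0.05. Of the myeloid list, S100a9 was at 463 to 1366 normalised reads in KO late colon, 5.9 to 1379 in KO early colon and 0 to 34.2 in WT irradiated colon. The high KO early value came from mouse 118 alone. Mice 100, 117 and 120 were at 5.9, 27.0 and 32.1, within the WT irradiated range. Ly6g of the same list was at 987 to 1618.5 in KO late colon and 850 to 3421 in KO early colon. In WT irradiated colon Ly6g was at 1309 and 624.5, so its ranges overlapped. Summed goblet markers ran from 43860.1 to 116082 normalised reads in KO late colon, 57215 to 164754 in KO early colon and 122896 to 404008 in WT irradiated colon. Summed leukocyte markers ran from 227 to 573 in KO late colon, 252 to 316 in KO early colon and 206 to 352 in WT irradiated colon. The part of these cell types in the values of the synthesis genes was not tested.

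Between the 2 KO times in colon, none of the 30 genes passed (limma; 0.00522% of all genes were called), with 8 at an unadjusted p under 0.05 and 0 called by edgeR or DESeq2. The fitted level was lower in KO late colon for 27 of 30 genes, among them all 6 mevalonate genes, all 12 sterol ring genes and all 4 regulators and carriers. The median log2 difference was −0.49, against 0.03 over all genes. With receptor gene reads as a covariate the median was −0.19 and 8 of 30 genes were positive. Those reads were 701 to 997 RPM in KO late colon and 389 to 651 in KO early colon. These ranges did not overlap, so this fit cannot separate the covariate from the group. Without a covariate the median ran from −0.38 without mouse 50 to −0.68 without mouse 57. Cell cycle genes had a median of −0.69, with 0 of 7 higher.

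Fasn, the multifunctional synthase that builds palmitate, was at 317, 228 and 854 in KO late colon against 2369, 771, 1915.5 and 1047.5 in KO early colon (log2 difference −1.80 ± 0.56, limma adjusted p = 0.371). The KO late library of mouse 57 lay within the KO early range. Acly did not overlap between the 2 times, at most 1719 in KO late and at least 2208 in KO early colon (log2 difference −1.02 ± 0.35, limma adjusted p = 0.404). Dhcr7, at 272 to 352 in KO late and 371 to 659 in KO early colon, did not overlap either (log2 difference −0.73 ± 0.27, limma adjusted p = 0.438). Lss, which closes squalene epoxide into lanosterol, was at 305, 292 and 672 against 1141, 542, 882 and 613 (log2 difference −0.96 ± 0.37, limma adjusted p = 0.438), and mouse 57 again lay inside the KO early range.

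Between the WT groups in colon none of the 30 genes passed (0% of all genes were called by limma), with 0 at an unadjusted p under 0.05 and 0 by edgeR or DESeq2. The median log2 difference, irradiated against non-irradiated, was −0.15. The genes of smallest p were Sc5d at 1086 and 925 against 1343, 1447 and 1124 (log2 difference −0.37 ± 0.27), Scd1 at 135 and 228 against 313, 185 and 217 (−0.40 ± 0.30), Insig1 at 1934 and 1062 against 2222, 1757 and 1679 (−0.38 ± 0.32) and Msmo1 at 2107 and 1595.5 against 3044, 2137.5 and 1917 (−0.34 ± 0.29), each with a limma adjusted p of 1.00. Sc5d was the only one of these 4 whose groups did not overlap.

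In the ileum none of the 30 genes passed in any of the 4 comparisons, and limma called 0% of all 19122 genes in each. KO early against WT irradiated ileum had 4 of 30 at an unadjusted p under 0.05, 0 called by edgeR or DESeq2 and a median log2 difference of −0.12 against −0.09 over all genes. The ribosomal RNA precursor Rn45s took 3.81% to 29.4% of reads in the 4 KO early ileum libraries and 0.13% to 0.549% in the 2 WT irradiated ones, ranges that did not overlap. It was highest in mouse 100, which also held the highest Me1 value. WT non-irradiated ileum was at 0.448% to 25.4% and KO late ileum at 0.283% to 13.6%, and the part of this share in the values of the synthesis genes was not tested. The median over the 30 genes was 0.06 when values were centred on expressed genes, so no direction is given for the set. The cytosolic malic enzyme Me1 was at 1166, 463, 262 and 598 in KO early ileum against 218.5 and 248 (log2 difference 1.21 ± 0.43, limma adjusted p = 0.165). All 4 KO early values lay above the 2 irradiated ones, and the lowest of them lay below the highest WT non-irradiated value of 268.5. Acss2 was at 364, 281, 320.4 and 318 against 449 and 478.5 (log2 difference −0.54 ± 0.19, limma adjusted p = 0.165), below all 5 WT ileum libraries. Lbr was at 579, 473, 745 and 815 against 924 and 1228 (log2 difference −0.74 ± 0.26, limma adjusted p = 0.165), and Idi1, the isopentenyl isomerase, at 129, 88.8, 67.5 and 66.8 against 219 and 115.5 (log2 difference −0.90 ± 0.37, limma adjusted p = 0.171). WT non-irradiated ileum overlapped KO early ileum for both genes.

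KO late against WT irradiated ileum had 1 gene at an unadjusted p under 0.05, Scd1, 0 called by edgeR or DESeq2, and a median log2 difference of −0.14. Scd1 was at 58.7, 60.3 and 110.2 against 10.3 and 51.5 (log2 difference 1.61 ± 0.57, limma adjusted p = 1.00), and the WT non-irradiated ileum reached 76.1. Acat2 was at 351, 317 and 415 against 259.6 and 280.2, with no overlap (log2 difference 0.41 ± 0.31). Fdft1, the squalene synthase, was at 1028, 838 and 942 against 1555 and 955 (−0.38 ± 0.30), and Scd2 at 2448, 1198.5 and 3064 against 1059 and 1578 (0.69 ± 0.55). The limma adjusted p was 1.00 for each, and the values of Fdft1 and Scd2 overlapped.

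Between the 2 KO times in ileum, 4 of 30 genes were at an unadjusted p under 0.05, with 0 called by edgeR and 3 by DESeq2 (7.2% of all genes were called by DESeq2). Lbr was at 1212, 1091 and 1415 in KO late against 579, 473, 745 and 815 in KO early ileum, with no overlap (log2 difference 0.95 ± 0.23, limma adjusted p = 0.0741). Me1 had the opposite order, at 206, 204 and 154 against 1166, 463, 262 and 598, again with no overlap (log2 difference −1.53 ± 0.38, limma adjusted p = 0.0741). Acss2 was at 543, 503 and 470.1 against 364, 281, 320.4 and 318 (log2 difference 0.66 ± 0.17, limma adjusted p = 0.0762), and Acat2 at 351, 317 and 415 against 250.5, 144, 238 and 297 (log2 difference 0.67 ± 0.26, limma adjusted p = 0.147), neither with overlap. DESeq2 called Acss2, Me1 and Lbr. With receptor gene reads as a covariate limma called 5 genes, Acss2, Mvk, Mvd, Me1 and Lbr, and 6.7% of all genes. The median over the 30 genes was −0.02, as over all genes.

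Markers were also compared between KO early ileum and other ileum groups, and limma called none of them. Against WT irradiated ileum, 0 of 7 cell cycle genes had a higher fitted level (median log2 difference −0.91, 5 at an unadjusted p under 0.05), 0 of 4 Paneth genes (−1.40) and 8 of 8 stromal genes (1.01), none of them called by limma. Summed Paneth markers were 2341 to 5533 normalised reads in KO early ileum and 4410.4 to 25322 in KO late ileum. Summed stromal markers were 377 to 685 in KO early ileum and 303 to 399 in KO late ileum. Both pairs of ranges overlapped. Whether the levels of Lbr, Me1 and Acss2 followed these markers was not tested.

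Between the WT groups in ileum none of the 30 genes was at an unadjusted p under 0.05 or called by edgeR or DESeq2, and the median log2 difference was 0.12. Scd1 was at 10.3 and 51.5 in irradiated against 76.1, 37.3 and 29.5 in non-irradiated mice (log2 difference −0.88 ± 0.57). Elovl6, which lengthens palmitate, was at 2479 and 2789.9 against 2527, 1658 and 2102 (0.35 ± 0.28), the farnesyl diphosphate synthase Fdps at 579 and 316 against 473, 189 and 303 (0.51 ± 0.43) and Idi1 at 219 and 115.5 against 151, 85.0 and 131 (0.42 ± 0.39). The groups of all 4 genes overlapped, with a limma adjusted p of 1.00 each.

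The last comparisons tested whether the colon minus ileum difference itself differed between groups. KO early against WT irradiated mice gave 0 of 30 genes (limma; 0.0408% of all genes were called), with 4 at an unadjusted p under 0.05 and 0 called by edgeR or DESeq2. The interaction was positive for 26 of 30, with a median of 0.58 against −0.07 over all genes. The smallest p values belonged to Acat2 (1.10 ± 0.38, limma adjusted p = 0.404), Msmo1 (1.16 ± 0.44, 0.410), Lbr (0.95 ± 0.38, 0.427) and Cyp51, the lanosterol demethylase (0.93 ± 0.43, 0.489). KO late against WT irradiated mice gave 0 of 30 (limma; 0.189% of all genes), with 2 at an unadjusted p under 0.05, 0 called by edgeR or DESeq2 and a median of −0.06. Its smallest p values belonged to Acss2 (−0.80 ± 0.35, limma adjusted p = 0.832), Me1 (1.30 ± 0.60, 0.883), Acly (−1.08 ± 0.52, 0.910) and Msmo1 (0.78 ± 0.46, 0.910). These 2 comparisons share the WT irradiated libraries.

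The same interaction between KO late and KO early mice was added after the tissue differences had been seen. It called 2 of 30 genes, Me1 higher (0.424% of all genes were called higher) and Lbr lower (2.08% were called lower; 2.51% in all). For Me1 the colon minus ileum difference was 2.15 ± 0.50 greater in KO late mice on the log2 scale (limma adjusted p = 0.0359). In single mice, colon minus ileum for Me1 was −2.58, −0.71, 0.32 and −1.45 in KO early mice, and 0.94, 0.96 and 1.24 in KO late mice. For Lbr the interaction was −1.56 ± 0.33 (limma adjusted p = 0.0317), from mouse differences of 0.32, 0.95, −0.01 and 0.00 in KO early and −1.05, −1.47 and −1.19 in KO late mice. Neither gene overlapped between the 2 times. Acss2 (−1.07 ± 0.29, limma adjusted p = 0.0518) and Acly (−1.51 ± 0.44, 0.0607) did not pass without the mouse as a block. With the mouse as a block 9 of 30 genes passed (28.6% of all genes), with limma adjusted p of 0.00795 for Me1, 0.00389 for Lbr, 0.0115 for Acss2 and 0.00489 for Acly. Acss2 also passed by edgeR (adjusted p = 0.0461) and by DESeq2 (0.00911), and Acly by DESeq2 (0.0196). Both calls were lost when mouse 100, 117, 120, 49, 50 or 57 was left out, each in turn, and when values were centred on expressed genes. Cell cycle genes moved with this comparison: 2 of 7 were called lower, with a median of −1.86. Their part in the Lbr and Me1 values was not tested.

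Spread within groups differed widely among the 30 genes. The within-group SD of log2 values ran from 0.19 (Acaca) to 1.01 (Mvd) in colon, with a median of 0.37, and from 0.12 (Acss2) to 1.10 (Mvd) in ileum, with a median of 0.45. Mvd, the mevalonate diphosphate decarboxylase, was at 487, 129, 508 and 174.5 in KO early colon and at 94.1, 63.3 and 280.1 in KO late colon. In WT colon it was at 211.5 and 58.0, and at 233, 145 and 86.8. The highest and lowest library of each of these groups lay far apart, and 2 of the 4 KO early libraries lay above all other colon libraries. Across the 30 genes, which share the same libraries, the spread followed the GC content of the transcript, with a Pearson r of 0.74 in colon and 0.57 in ileum (Spearman rho 0.69 and 0.52). The GC-rich genes of widest spread included Mvd (59.3% GC), Fasn (57.9%) and Tm7sf2 (56.5%).

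**Figure D5:**
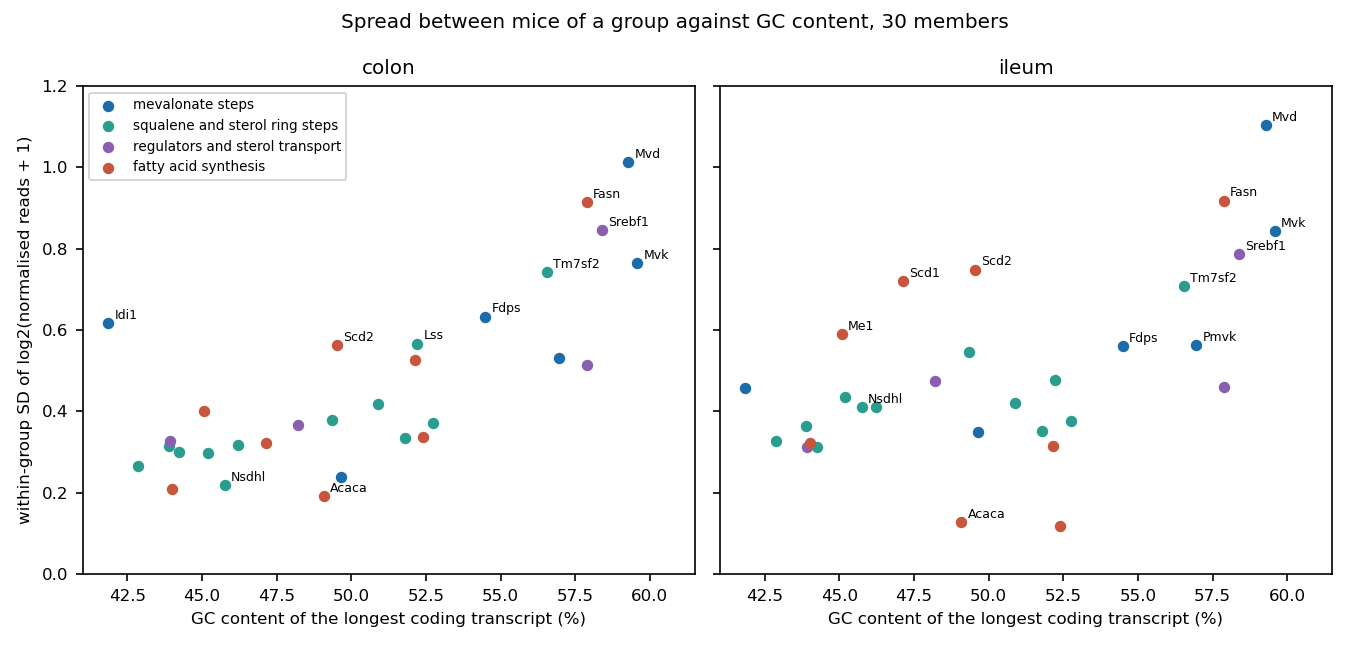
Within-group SD of log2(normalised reads + 1) (y axis) against GC content in percent of the longest coding transcript (x axis) for the 30 measured genes, colon and ileum in separate panels, 1 point per gene coloured by role. The spread rises with GC content in both tissues, and Mvd has the highest spread in each.

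Single libraries carried many of the genes together. In KO early ileum, mouse 100 was the highest of 4 libraries for 28 of 30 genes, and in KO late colon, mouse 57 was the highest of 3 for 25. Of the 2 WT irradiated colon libraries, mouse 59 was the higher for 28 of 30 genes. In each library the correlation across the 30 genes between GC content and the deviation from the group mean ran from −0.83 (KO early colon, mouse 117) to 0.84 (KO late ileum, mouse 49). Over 10810 expressed genes the same correlation ran from −0.59 to 0.66. The part of this pattern in the group differences above was not tested beyond the fit with the GC trend removed, under which the median log2 difference of KO early against WT irradiated colon was 0.55 and that of KO late against KO early colon −0.35.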

How the data were processed

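Total RNA (100 ng) was made into stranded libraries after ribosomal RNA removal and read as single ends of 50 bases, per the labels' protocols. The molecule label instead says polyA RNA, and this conflict bears on how the Rn45s share is read. HISAT 0.1.6, HOMER and build mm9 are named, per the submitters' processing notes. The strand setting of the counting is not stated in the labels, so overlapping and antisense genes cannot be told apart. The deposited table holds normalised signal, which divided back into whole reads for 99.3% to 100% of low values per library (within 0.05), with reads of 8.32 to 18.7 M per library.

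Genes reaching 10 normalised reads in 2 or more libraries were tested with limma 3.58.1 (R 4.3.3, trend) on log2(value + 1), and p-values were adjusted over all genes by Benjamini-Hochberg, with calls at adjusted p under 0.05. Comparisons within a tissue used its 12 libraries, and tissue comparisons all 24. Within a tissue each library has its own mouse number, so those p-values measure the spread between mice. The main tissue and interaction fits treated the 24 libraries as independent. Their p-values therefore ignore the pairing and do not measure the spread of the colon minus ileum difference between mice. No 2 libraries of a group agreed within sampling noise. The labels give colon and ileum of each mouse the same number, so the mouse was fitted as a block in an alternative. Deviations of the paired libraries from their group means correlated at −0.36 to 0.70, with 7 of 12 mice over 0.1. The 2 WT irradiated mice share the value of 0.70, since deviations from a mean of 2 mirror each other. The 12 values are therefore not independent. Other alternatives were edgeR 4.0.16 and DESeq2 1.42.0 on recovered reads, a pseudocount of 4, no filter, a filter at 50, TMM scaling, centring on expressed genes, only the groups compared, receptor reads as a covariate, other WT controls and each mouse left out. GC trend removal and the KO late against KO early interaction were added after seeing the data.

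Members and lists were chosen with earlier results of these data known. Values per library are given for up to 8 called genes per comparison, or the 4 of smallest p where fewer passed, and for further genes chosen after their values were seen (Mvd).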

Additional observations from a re-analysis of the deposited data

Results flagged for a closer look

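Values of the 30 measured genes were compared within each group of 4 libraries, 60 sets in all, and 5 held a library whose gap to the nearest other took up most of the group's range. Chance flags about 1 in 20 such sets. In KO early colon, mouse 100 stood apart for Acat2 at 381.1 normalised reads and mouse 118 for Scd1 at 367.4. In KO early ileum, mouse 100 stood apart for Tm7sf2 at 392.4, Sc5d at 2030.6 and Srebf1 at 993.1, and it was the highest library of that group for 28 of 30 genes. The 3 ileum values and the Acat2 value came from the same mouse.

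The colon minus ileum difference of Me1 (2.15 on the log2 scale) and of Lbr (−1.56) differed between KO late and KO early mice by the interaction test, which was added after seeing the data.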

How the results depend on the processing

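Over the 27 calls of single genes, 10 stayed past the threshold in every alternative run, 17 were lost in at least 1 and 0 changed direction. The calls within tissue were few in every setting. For KO early against WT irradiated colon DESeq2 gave 3 called genes (1.23% of all genes were called) and the receptor covariate 2 (0.522%). For KO late against WT irradiated colon DESeq2 gave 1 (4.2%, the most of any setting) and GC trend removal 1. The WT non-irradiated control gave 1 (2.49%) and both WT groups 2 (4.12%). For KO late against KO early ileum DESeq2 gave 3 (7.2%) and the receptor covariate 5 (6.7%). Colon against ileum gave 4 called genes with only irradiated WT mice in the contrast and all 24 libraries fitted (1984 of all 19588 genes). In WT mice with 1 mouse left out it gave 6 (13.2%, without mouse 59) to 11. In KO early mice it gave 13 with the mouse as replicate block (18.1%) and 14 with the block and GC trend removal together (4188 genes). With 1 mouse left out it gave 4 (10.8% to 11.2%) to 5. In KO late mice it gave 10 with GC trend removal (32.6% of all genes) and 11 with the replicate block (49.2%). With both it gave 14 (10110 of all 19588 genes), and with 1 mouse left out 3 (14.3%, without mouse 49) to 6. The added interaction of KO late against KO early gave 0 when centred, 5 by DESeq2 and 9 with the block (28.6% of all genes). It gave 8 with block and GC (5927 of all 19588 genes), and 0 to 3 with 1 mouse left out. Counts without a share beside them are not read as a result about these genes. The causes of the shifts in count were not tested. Counts over all genes also moved: from 39 to between 3 and 235 for KO early colon, from 197 to between 11 and 805 for KO late colon, from 0 to 209 by DESeq2 for KO early ileum, and from 0 to 1377 by DESeq2 for KO late against KO early ileum. For colon against ileum they were 4236 (1984 to 6065) in WT mice, 2774 (2119 to 4188) in KO early mice and 5494 (2797 to 10110) in KO late mice, and for the interactions 8 (1 to 93), 37 (1 to 178) and 491 (0 to 5927). KO late colon against ileum split into 2167 higher and 3327 lower, and into 2673 and 2364 when centred. With 2 WT irradiated mice, small differences were not detectable.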
